A study of Arabidopsis thaliana with 8 samples.

Results

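The transcripts described here were off in seedlings of 3 genotypes and on in the 4th. They were chosen by their signals on ATH1 arrays: a probe set had to read 10 or less on all 6 wild-type, clf-28 and swn-7 arrays and 40 or more on both clf-28 swn-7 double-mutant arrays. Of the 22746 probe sets that are not controls, 162 met both thresholds. LEA18, AtLEA4-1 and BBM were then left out by name, which left 159. The rule also leaves out organelle-encoded genes and symbols starting UGT, and none of these met the thresholds. Here "on" and "off" mean only these thresholds: a signal of 10 or less is at most 10% of an array's trimmed mean signal and does not show that a transcript was absent.

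Whole Arabidopsis thaliana seedlings were compared in bulk, with 2 arrays for each of 4 genotypes. Wild type was the Columbia (Col-0) accession. The clf-28 and swn-7 lines each carry a T-DNA insertion, 1 line per gene, and clf-28 swn-7 combines both insertions. Seeds had 3 days of cold at 4 °C, and all seedlings grew on agar with nutrient salts at about 23 °C and 70% humidity; the labels give growth stage 1.03. Double-mutant seedlings were 12 days on plates and all others 10 days, so in every statement about the double mutant the effects of genotype and of age cannot be told apart.

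CURLY LEAF (CLF) and SWINGER (SWN) are histone methyltransferases, the catalytic subunits of Polycomb repressive complex 2, which marks chromatin of silent genes by trimethylating lysine 27 of histone H3. After germination this complex is known to keep embryo and seed maturation genes silent, and the 2 enzymes can stand in for each other at many targets. Seed maturation is the phase in which an embryo fills oil bodies and protein stores and becomes tolerant of drying.

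Signals had been scaled to a trimmed mean of 100.01 on all arrays to within 0.01 units, and 69.1% to 71.6% of probe sets lay above 10 on an array. Correlations between both arrays of a genotype (log2 signals floored at 10) ranged from 0.973 in wild type to 0.991 in clf-28. The wild-type pair stood furthest apart, with 1073 probe sets differing at least 2-fold, against 578 within the double mutant, 357 within swn-7 and 161 within clf-28. Green seedling markers were present: the antenna gene LHCB4.1 read 4127 and 5348 on the wild-type arrays, and 258 and 336 on the double-mutant arrays. None of the 4 anther and pollen markers named in the annotation, which include the tapetum regulator AMS and the sporocyte gene SPL, exceeded 10 on any array, the highest value being 8.83 for AMS on double-mutant replicate 2. CLF, SWN and other Polycomb genes have no name in the probe annotation, so the mutated genes could not serve as a check of the labels and were not analysed here. In bulk seedlings, more cells of a type and more RNA per cell cannot be told apart.

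Under the same 2 thresholds, no probe set was on in wild type alone, in clf-28 alone or in swn-7 alone. In the double mutant alone there were 162. For a single mutant, this count also requires the probe set to be off in the double mutant, which carries the same mutation. AT1G03710 and 254595_at were on in clf-28 and off in wild type and swn-7, but were on in the double mutant too and so do not count. The counts therefore do not show that a single mutant turned on no transcripts. The double-mutant signals of the 159 members averaged between 43.0 and 4104 units, with a median of 135. The average was at least 1000 units for 26 members, from 100 to under 1000 for 71 and below 100 for 62. The highest signal among the other 6 arrays had a median of 5.97 over the members and was 5 or less for 66 of them. Median signals of the members were 2.22 and 3.06 on the wild-type arrays, 2.04 and 2.61 on the clf-28 arrays, 1.71 and 1.57 on the swn-7 arrays, and 139 and 115 on the double-mutant arrays. Since these signals chose the members, the differences are a description and carry no test.

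**Figure D1:**
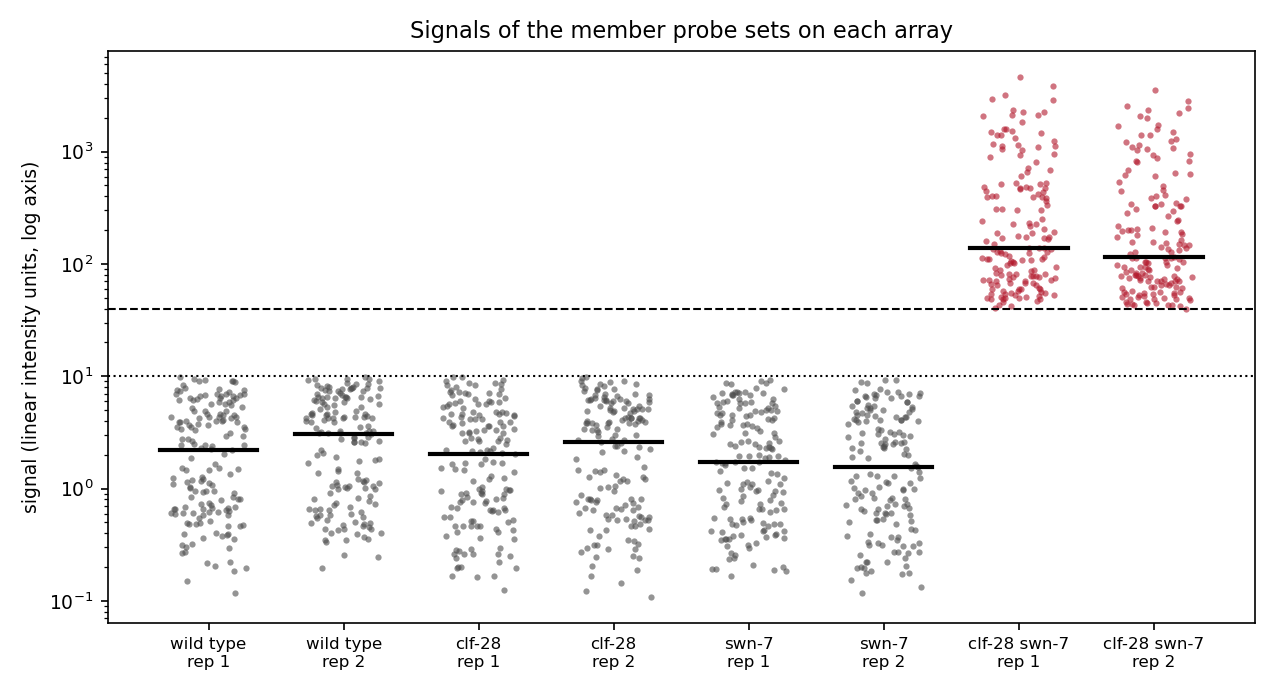
Signal of each of the 159 member probe sets (points) on each of the 8 arrays, in linear intensity units on a log axis; black bars are the medians, the dotted line is the off threshold of 10 and the dashed line the on threshold of 40. The 6 arrays of the other genotypes have medians between 1.57 and 3.06, and the double-mutant arrays have medians of 139 and 115.

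The members are given below with the double-mutant signal on replicate 1 and replicate 2. For some, the fold over the off threshold is added, which is the geometric mean of both arrays over 10. It is a lower bound on the fold over the other genotypes, whose signals were 10 or less. Signals also depend on each probe set's own brightness, so the bands, ranks and medians given here sort probe sets by signal and do not order transcripts by amount. Of the 159 members, 96 belong to 1 annotated gene each, 2 match several genes and 61 are not listed in the annotation used here. The classes below were made from known gene functions after the values had been seen. They cover 43 members, and the remaining 53 members with a gene were given no class. How many genes of each class the array holds was not counted, so the class sizes have no background share.

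Late embryogenesis abundant (LEA) proteins and dehydrins, small hydrophilic proteins that accumulate as seeds dry and protect cells in the dry state, made up the largest class, with 13 members. AT3G15670, a LEA gene, read 1.12 and 6.55 in wild type, 0.363 and 2.39 in clf-28, 6.82 and 9.33 in swn-7, and 4640.2 and 3568 in the double mutant. Its geometric mean in the double mutant was thus 407-fold above the off threshold, with a gap of more than 2 orders of magnitude between the double mutant and every other array. The dehydrin gene listed as LEA (AT2G21490) read 0.666 and 8.78 in wild type, 0.894 and 2.41 in clf-28, 0.208 and 1.13 in swn-7, and 2235 and 1731 in the double mutant. Its geometric mean there was 197-fold above the threshold. Wild type replicate 2 held its highest value outside the double mutant. AT4G21020 reached 2108 and 1509.7 in the double mutant and at most 0.993 elsewhere. For AT3G53040 the double-mutant signals were 1575 and 1419, and for AT4G36600 they were 1129 and 1044. The geometric means of these 3 LEA genes lay 178-fold, 149.5-fold and 109-fold above the threshold.

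The remaining 8 genes of the class had double-mutant means from 82.2 to 763. The seed maturation protein gene AT3G22490 read 519 and 309, and the dehydrin gene AT4G39130 read 467 and 326. M10, a LEA gene known from seeds, was 1 of 2 members of the class that were brighter on replicate 2, with 50.6 on replicate 1 and 114 on replicate 2. LEA18 and AtLEA4-1, which the choice of members left out, met the same thresholds with mean double-mutant signals of 4748 and 2689. The embryo regulator BBM met them too, with a mean of 60.7.

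**Figure D2:**
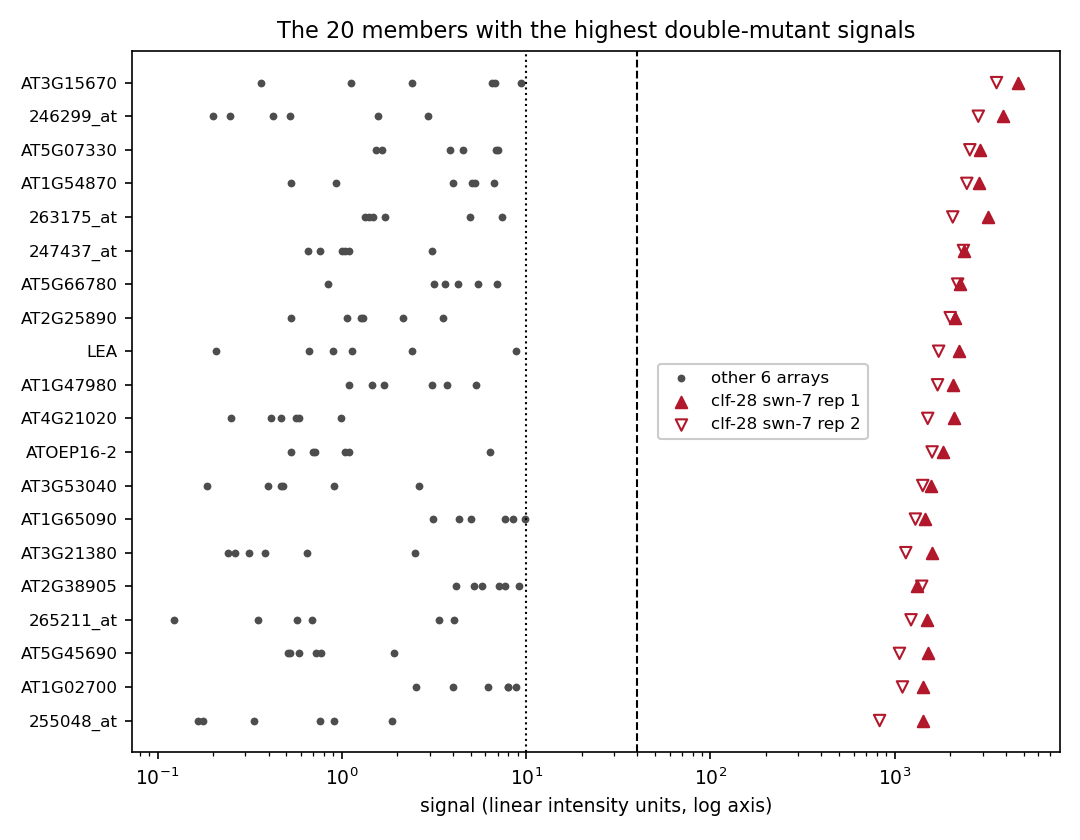
Signals of the 20 members with the highest double-mutant means on all 8 arrays, in linear intensity units on a log axis; triangles are the 2 double-mutant arrays, grey points the other 6 arrays, and the dotted and dashed lines the thresholds of 10 and 40. Labels ending in _at are probe sets without a gene name in the annotation used here. All double-mutant values lie far to the right of the dashed line and all other values to the left of the dotted line.

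Oil bodies, the lipid droplets of seeds, are coated by oleosins and shaped by seipins. AT2G25890, an oleosin gene, read 1.27 and 1.07 in wild type, 2.15 and 3.54 in clf-28, 0.533 and 1.30 in swn-7, and 2129 and 1999.8 in the double mutant. Its geometric mean there was 206-fold above the threshold. A second oleosin gene, AT3G18570, read 488 and 341 in the double mutant and at most 0.945 on the other arrays. The seipin gene AT5G16460 reached 166 and 103, against at most 3.26 elsewhere. That both oleosins and the seipin were on in the double mutant is what the choice of members requires, and their margin was not tested. The class held 4 more genes of lipid metabolism or transport. AT5G38170, of the lipid-transfer protein and 2S albumin superfamily, read 807 and 1242, brighter on replicate 2. The GDSL-type lipase genes AT1G71250 and AT5G08460 had means of 143 ± 63.6 and 131 ± 32.5 (SD, n = 2), and the wax synthase-like gene AT5G55370 had one of 57.6 ± 10.2 (SD, n = 2).

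Among the 20 members with the highest double-mutant signals, 15 carry a gene name. Besides the LEA and oleosin genes above they include AT1G47980, annotated as a desiccation-like protein, with 2062 and 1708. ATOEP16-2, an outer plastid envelope channel whose transcript is known from seeds, read 0.713 and 6.38 in wild type, 1.04 and 0.527 in clf-28, 1.09 and 0.698 in swn-7, and 1819.5 and 1594 in the double mutant. Its only value above 2 outside the double mutant came from wild type replicate 2. AT1G54870, a short-chain dehydrogenase gene, read 2869.9 and 2460.2 in the double mutant. The jacalin-like lectin gene AT3G21380 gave 1592 and 1148, and AT2G38905, a small hydrophobic membrane protein gene of the low temperature and salt responsive family, gave 1322 and 1401. AT5G07330, AT5G66780, AT1G65090, AT5G45690 and AT1G02700 complete the named part, with double-mutant means of 2735, 2222, 1375, 1288 and 1259. The unnamed probe sets 246299_at, 263175_at, 247437_at, 265211_at and 255048_at had means of 3353, 2633, 2362, 1358 and 1122. Across these 20 members the highest value outside the double mutant was 9.82.

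Regulators of transcription and chromatin were on as well. AGL67, a MADS-box gene expressed in embryos, read 0.183 and 0.451 in wild type, 0.126 and 0.241 in clf-28, 0.190 and 0.176 in swn-7, and 169.7 and 69.9 in the double mutant. The double-mutant arrays were thus 2.43-fold apart for AGL67, yet both lay far above the other 6. AT5G10120, an EIN3-like gene, read 226 and 90.7, and AT5G18450, an AP2/ERF gene of the DREB2 type, read 391 and 196. AT1G72570, an AP2-like gene related to AINTEGUMENTA, read 65.0 and 44.2 in the double mutant and at most 0.409 elsewhere. AT4G33280, a B3-domain gene, read 74.5 and 47.5. All 5 of these genes were brighter on replicate 1. CHR42, a chromatin remodelling ATPase of the CLASSY group, which acts in RNA-directed DNA methylation, read 0.941 and 1.42 in wild type, 4.82 and 3.88 in clf-28, 3.68 and 0.664 in swn-7, and 76.7 and 70.3 in the double mutant. For CHR42 the 2 double-mutant arrays lay close together.

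Auxin genes were represented by an enzyme that makes the hormone and one of a family that conjugates it. YUC4, a flavin monooxygenase of auxin synthesis, read 1.23 and 7.41 in wild type, 1.17 and 3.94 in clf-28, 1.51 and 1.04 in swn-7, and 102 and 88.8 in the double mutant. AT1G48660, of the GH3 family of acyl acid amido synthetases, read 478 and 408 in the double mutant and at most 5.94 elsewhere. For both genes the replicate difference in the double mutant was small beside the gap to the other genotypes.

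Enzymes of specialised metabolism gave 8 members with double-mutant means from 44.6 to 206. SDT, which makes disinapoyl spermidine in seeds, read 0.315 and 0.544 in wild type, 0.165 and 0.299 in clf-28, 0.413 and 0.196 in swn-7, and 135 and 202 in the double mutant. AOP3, an oxoglutarate-dependent dioxygenase of glucosinolate side-chain modification, read 132 and 128 in the double mutant and at most 7.26 elsewhere. The terpene synthase gene AT1G48800 read 49.1 and 70.5, and the flavin monooxygenase gene AT1G12130 read 239 and 173. The other 4 genes of this class encode a UDP-glycosyltransferase (AT5G65550), a SABATH-type methyltransferase (AT5G66430), a berberine bridge-like enzyme (AT5G44360) and a 2-oxoglutarate dioxygenase (AT1G17010).

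Transport proteins were OCT1, an organic cation and carnitine transporter, the MATE efflux gene AT3G03620 and AT3G25260 (NPF4.1), of the nitrate and peptide transporter family. OCT1 read 77.6 and 136 in the double mutant and at most 4.05 elsewhere, AT3G03620 read 189 and 157, and AT3G25260 read 57.0 and 54.0. Of these, only OCT1 was brighter on replicate 2. The 5 genes for F-box or kelch proteins, which recruit targets for ubiquitin ligases or share their repeats, had means between 52.4 and 85.5. PAP20, a purple acid phosphatase gene, read 49.4 and 61.9, and the tetraspanin gene TET4 read 59.9 and 44.3. One member, AT4G20500, is annotated as a pseudogene, and its probe set carries the s suffix given to probes that match several transcripts. It read 49.1 and 78.1 in the double mutant. In all, 155 of the 159 probe sets have the plain suffix and 4 may share signal with related transcripts.

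Several of the 53 members without a class have a known protein family. AT3G14880, related to the dormancy gene DOG1, read 335 and 185 in the double mutant and at most 5.16 on the other 6 arrays. AT3G05260, a short-chain dehydrogenase gene like AT1G54870, read 397 and 265, with a geometric mean 32.4-fold above the off threshold. AT3G58450, a universal stress protein gene, read 1058 and 805, and the pectin methylesterase gene AT3G60730 read 89.1 and 79.2. All 4 were at 10 or less on every array of the other genotypes, as the choice requires.

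Members lay close to both thresholds. At the on threshold, AT5G04010 was just inside with 71.95 and 40.01, as were AT5G66430 with 40.1 and 49.1 and AT3G12460 with 42.0 and 45.6. Just outside lay AT5G35660 with 38.5 and 52.6, and the unnamed 261617_s_at and 256852_at, whose lower double-mutant signals were 38.1 and 37.0. At the off threshold, the unnamed 255014_at, 248428_at and 248494_at were just inside, at 9.91, 9.86 and 9.82 on their brightest array outside the double mutant. AT4G00390, 250611_at and AT3G51410 were just outside, at 10.1, 10.1 and 10.2. These values show a continuum across both thresholds, so the number 159 belongs to the thresholds. It was 125 with an off threshold of 8, 193 with one of 12, 188 with an on threshold of 30 and 119 with one of 60.

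The 2 double-mutant arrays differed in a common direction over the members. Replicate 1 was brighter for 124 of the 159 members (77.99%), with a median ratio of replicate 1 to replicate 2 of 1.21. Among the 10755 other probe sets at 40 or more on both double-mutant arrays, replicate 1 was brighter for 54.7%, with a median ratio of 1.03. Of the 60 non-members on in the double mutant and above 10 on exactly 1 other array, most were brighter on replicate 1 too. The tilt is therefore not particular to the members. Replicate 1 was brighter for 11 of 13 LEA genes and for 19 of the 20 members with the highest signals, and for 4 of 7 oil body and lipid genes, a share near that of the other probe sets. Members at least 2-fold apart between both arrays numbered 13 (8.18%, against 1.13% of the other probe sets), and 11 of these were brighter on replicate 1. The largest ratio in a named gene was 2.49 for AT5G10120, and the unnamed 252320_at went furthest the other way, with 71.3 on replicate 1 and 217 on replicate 2. With a single pair of arrays this tilt has no replicate check and was not tested.

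**Figure D3:**
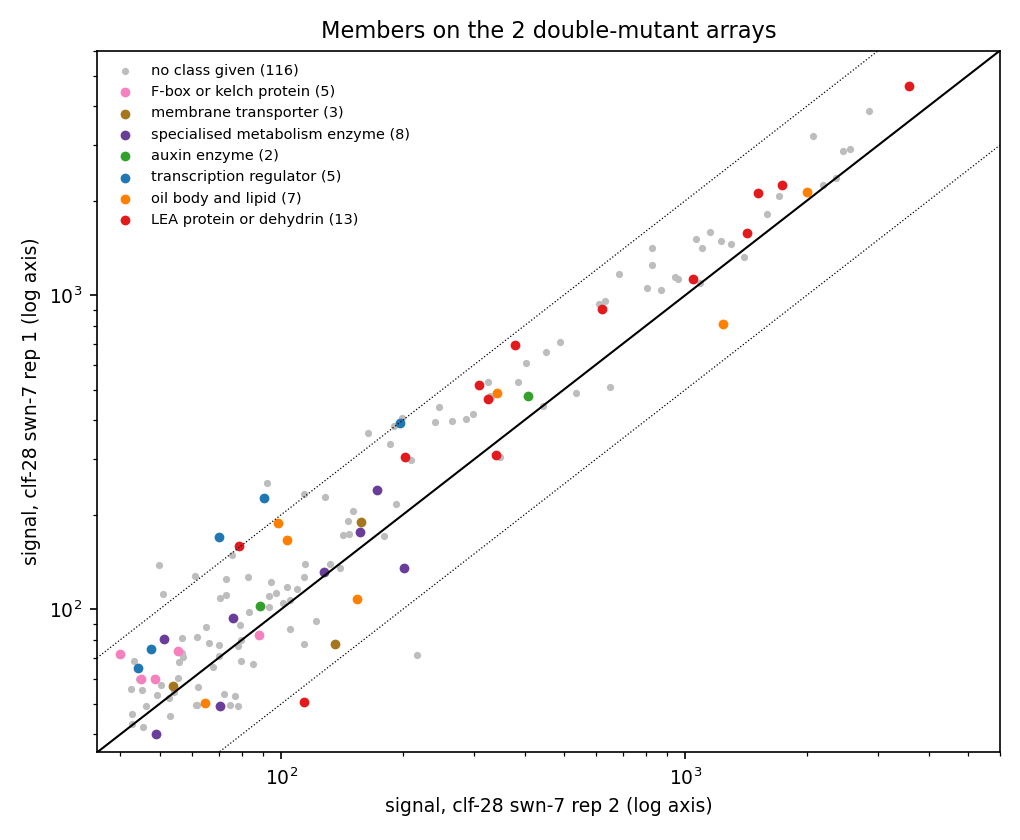
Signal of each member on double-mutant replicate 1 (vertical, log axis) against replicate 2 (horizontal, log axis), coloured by functional class, with the number of members in each class. The solid line marks equal signals and the dotted lines a 2-fold difference; 124 of 159 points lie above the solid line.

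To ask how often 1 single mutant already had such a transcript on, all probe sets off on both wild-type arrays and on in both double-mutant arrays were sorted by their state in clf-28 and swn-7. There were 196 of them after the same genes were left out. The 159 members were off in both single mutants. Another 17 were between off and on in clf-28 and off in swn-7, 9 were the reverse, and 9 were between in both single mutants. In clf-28, 2 were fully on, and in swn-7 0. Those 2 were AT1G03710 and the unnamed 254595_at. AT1G03710 read 53.8 and 58.5 in clf-28 and 90.7 and 91.7 in the double mutant. The signals of 254595_at were 159.8 and 166 in clf-28, above the 74.5 and 70.5 of the double mutant.

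Probe sets that failed the off threshold on exactly 1 array did so mostly in wild type, with signals there of up to 165. The 60 counted next leave out probe sets that failed on more than 1 array. Among the probe sets on in the double mutant, 60 exceeded 10 on exactly 1 of the other 6 arrays. That array was wild type replicate 2 for 24 of them, wild type replicate 1 for 18, clf-28 replicate 1 for 4, clf-28 replicate 2 for 6, and swn-7 replicate 1 and 2 for 4 each. Most of these signals were low, with a median of 12.3 on the single array. A signal above 20 there was reached by 13 of them, 8 on wild type replicate 2 and 5 on wild type replicate 1. AT1G47540, a defensin-like gene, read 3.21 and 35.2 on the wild-type arrays and 5023 and 4889 on the double-mutant arrays. AT2G15010, a thionin gene, read 9.18 and 34.98 in wild type and 4565 and 3129 in the double mutant. Both were picked after their values were seen. Counting both wild-type arrays, 58 probe sets were on in the double mutant, at most 10 on all 4 single-mutant arrays and above 10 in wild type, 16 of them on both wild-type arrays. Without wild type replicate 2 the member count was 183, and without wild type replicate 1 it was 177.

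**Figure D4:**
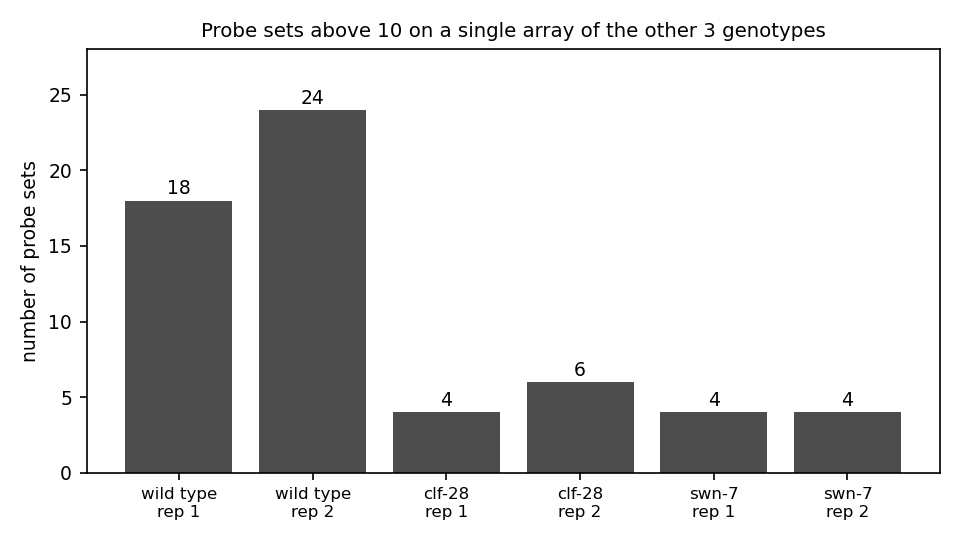
Number of probe sets (bars, counts printed above) that were 40 or more on both double-mutant arrays and above 10 on exactly the array named below the bar. The wild-type arrays account for 18 and 24 of the 60, and the 4 single-mutant arrays for 4 to 6 each.

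Storage and maturation genes that are not members were followed in a list of 28, to see whether related transcripts moved in the same comparison of the double mutant with wild type. Limma called 25.2% of the 17332 probe sets tested higher and 21.5% lower in this comparison. A probe set that exceeded the floor of 10 on fewer than 2 arrays outside the double mutant entered this test only because it was high there, so its call is not used. Without 776 such probe sets, 23.4% of 16556 were higher and 22.5% lower. Of the 6 genes of the list that the annotation names, 3 were left, and PAP85, AT4G36700 and SDP1 were all called higher. The list was drawn up with earlier results of these data known. AT2G28490, AT1G03890 and AT2G18540 are given as signals with no test. AT2G28490, a vicilin-like storage protein gene, read 7.65 and 25.8 in wild type, 0.927 and 0.406 in clf-28, 1.26 and 1.44 in swn-7, and 4957 and 4728 in the double mutant. Its double-mutant signals lay far above all others, and wild type replicate 2 was the 1 other array above the floor. PAP85, another vicilin-like gene, had signals of 19.0 and 57.9 in wild type and 4552 and 3518 in the double mutant. Its log2 change was 6.92 (SE 0.46, limma adjusted p = 2.92e-05). For AT1G03890, a cupin gene of the 12S globulin type, the signals were 2.63 and 26.7 in wild type and 686 and 709 in the double mutant. AT2G18540 read 33.4 and 21.5 in the double mutant, below the on threshold, and at most 8.97 on the other arrays. AT2G28490, PAP85 and AT1G03890 were brighter on wild type replicate 2 than on wild type replicate 1, and that array alone kept AT2G28490 and AT1G03890 out of the members. SDP1, a lipase gene of oil breakdown, rose by a log2 of 0.48 (SE 0.14, limma adjusted p = 0.0294). SDP1 had a limma adjusted p of 0.0572 to 0.137, and so did not pass, when 1 clf-28 array, 1 double-mutant array, wild type replicate 2 or both single mutants were left out. AT4G36700, a cupin gene, rose by a log2 of at least 6.15 (SE 0.61, limma adjusted p = 2.03e-04), since wild type replicate 1 lay at the floor. It was singled out after its values were seen because it already read 85.7 and 35.2 in clf-28, against 0.765 and 33.3 in wild type.

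Few known regulators of embryo, seed and flower development outside the members could be tested. They were BZIP53, AGL18, NGA1 and AGL80. Only AGL80 was called higher, and these are too few to set beside the 23.4% of all probe sets. Most genes of these lists have no name in the probe annotation and may be among its unnamed probe sets. Of 13 seed maturation regulators 1 is named, BZIP53 (log2 -0.30, SE 0.20, limma adjusted p = 0.248). Of 19 embryo and meristem regulators AGL18 was tested (log2 0.42, SE 0.20, limma adjusted p = 0.124), and CLV3 stayed at or below 1.07 on all 8 arrays. NGA1 is the 1 named gene of 16 floral genes (log2 0.68, SE 0.27, limma adjusted p = 0.0725); it passed when double-mutant replicate 2 was left out (limma adjusted p = 0.0308). AGL80, a type I MADS-box gene of the central cell, rose (log2 0.98, SE 0.30, limma adjusted p = 0.0318). AGL80 no longer passed with no filter, without either clf-28 array, without wild type replicate 2 and with either double-mutant array left out (limma adjusted p 0.0539 to 0.147). The type I genes AGL23, AGL28 and AGL62 stayed below 10 on all 8 arrays, with a highest value of 8.04 for AGL62 on double-mutant replicate 1. Of the root markers, the peroxidase gene AT5G17820 fell (log2 -2.40, SE 0.39, limma adjusted p = 0.00211). EXPA7, an expansin gene of root hairs, also fell (log2 -1.20, SE 0.39, limma adjusted p = 0.0395), which is a bound on the fall because both double-mutant arrays lay at the floor, but it did not pass at a floor of 20%, with no filter, or when 1 array of wild type or of the double mutant was omitted (limma adjusted p 0.0728 to 0.525). All 4 green seedling markers named in the annotation fell, among them LHCB4.1 (SE 0.25, limma adjusted p = 2.12e-05) and the Calvin-cycle genes PRK (log2 -3.96, SE 0.26) and SBPASE (log2 -3.64, SE 0.28), with a median log2 change of -3.82 over the 4. The part of these shifts in the members' signals was not tested. Among 3 transcripts used as references in qPCR, PEX4 moved by a log2 of -0.24 and AT2G28390 by 0.19, and neither passed. The third, AT4G34270, passed with a log2 of 0.58 (SE 0.18, limma adjusted p = 0.0308). Its adjusted p in limma was 0.0545 to 0.148 when swn-7 and clf-28 were left out of the fit or when 1 array of wild type, of clf-28 or of the double mutant was omitted.

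Polycomb marks can span neighbouring genes, so genes directly beside the 96 named members in the annotation were examined. This was possible only where the probe annotation gives them a probe set of 1 gene. The named members were spread over the nuclear genome, with 26 on chromosome 1, 12 on chromosome 2, 20 on chromosome 3, 15 on chromosome 4 and 23 on chromosome 5. In the same order, the chromosomes hold 3451, 2200, 2746, 1962 and 3008 of all probe sets with 1 gene. A difference from this background was not tested. Positions are not printed, since the sources used here name no build for the probes. Among the 96 named members, 2 pairs lay side by side. Members without a single annotated gene were not placed, so more pairs may exist. AT1G54860, which read 1094 and 1087 in the double mutant, lies next to AT1G54870. AT1G14930 and AT1G14940, neighbouring genes of the major latex protein-like family, read 87.7 and 65.3, and 659 and 452.

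Of the 187 genes next to a member that are not members themselves, 75 have a probe set of 1 gene in the probe annotation. The others were not measured here, and 14 of the 75 were not above the floor on 2 arrays. The remaining 61 met the filter, 5 of them only with the double-mutant arrays. Of the other 56, 16 were higher in the double mutant than in wild type (28.6%, against 23.4% of all probe sets left on the same terms) and 13 were lower (23.2%, against 22.5%). The median log2 change was 0.21 for these neighbours and 0.07 for those probe sets. The shares lie near the background, and the difference from it was not tested. With the 5 counted, 20 of 61 were higher (32.8%, against 25.2% of all 17332 tested). Of these 20, 4 entered the test only by being high in the double mutant, so this larger count is not used.

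Of the 5 neighbours with the smallest adjusted p, 2 are of the same family as the member beside them. AT1G14950, next to AT1G14940 and of the same latex protein-like family, read 5.37 and 10.4 in wild type, 5.77 and 4.63 in clf-28, 7.32 and 5.14 in swn-7, and 1451 and 1666 in the double mutant. Its double-mutant mean on the log2 scale was at least 152-fold above that of wild type. AT5G38160, next to AT5G38170 and of the same lipid-transfer superfamily, read 1.44 and 12.2 in wild type and 1289.6 and 1148 in the double mutant. This difference was at least 110.2-fold. Both genes met the filter only with the double-mutant arrays, so their calls are not used. Their place among the 5 rests on the same high signals and carries no weight. In both a wild type replicate 2 signal slightly above 10 was the one value that kept them from being members. Probe sequences were not analysed here, so how far such tandem relatives share signal through similar probes was not tested. AT5G04000, next to AT5G04010, rose 21.6-fold, from 11.7 and 17.6 in wild type to 343 and 281 (log2 4.43, SE 0.24, limma adjusted p = 1.19e-05).

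The other 2 were on in wild type. AT3G19910, next to AT3G19920, rose 2.94-fold, from 158 and 188 in wild type to 505 and 509 (log2 1.56, SE 0.14, limma adjusted p = 1.34e-04). AGL87, a MADS-box gene next to the LEA gene AT1G22600, fell from 96.3 and 89.5 to 14.2 and 15.7 (log2 -2.64, SE 0.24, limma adjusted p = 1.44e-04), while AT1G22600 itself read 306 and 203 in the double mutant. AGL87 was lower on both double-mutant arrays than on any of the other 6.

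**Figure D5:**
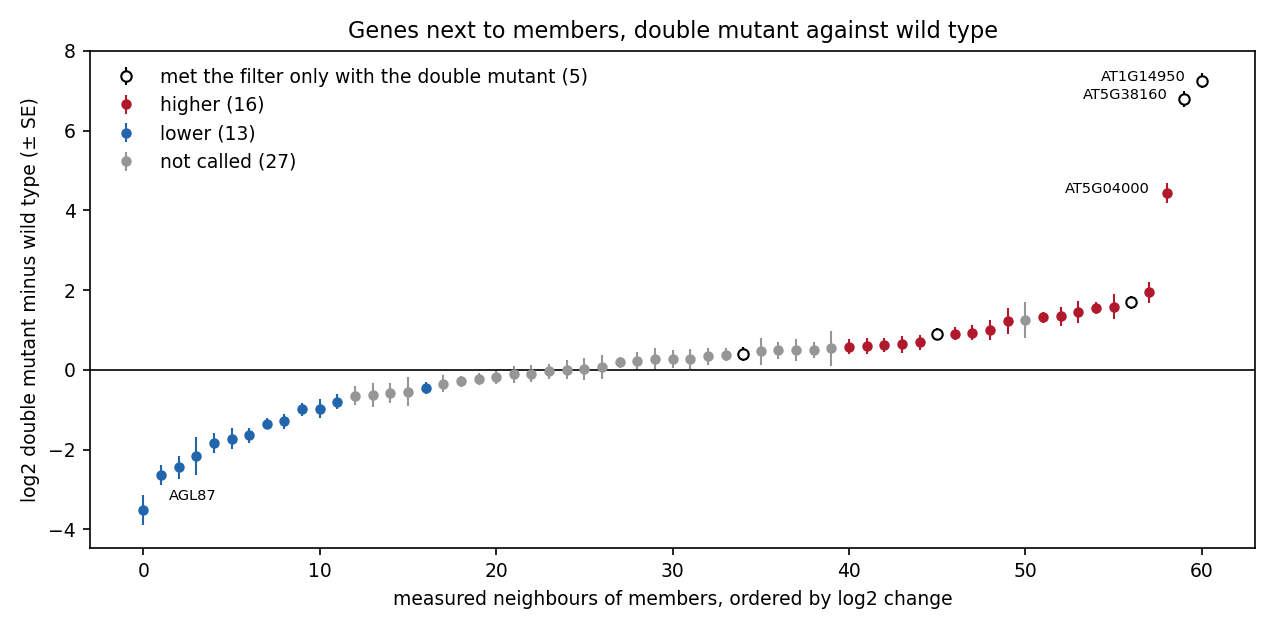
Log2 change of the double mutant from wild type (vertical, with limma's SE as bars) for the 61 genes next to members that met the filter, ordered by size; red points were called higher, blue points lower and grey points did not pass. Open points are the 5 genes that met the filter only with the double-mutant arrays, whose calls are not used. The 3 largest rises, all above 4, stand apart from the other neighbours, and AGL87 lies at -2.64. Among these 3, AT1G14950 and AT5G38160 are open points.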

How the data were processed

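Total RNA of whole seedlings was hybridised to 8 ATH1 arrays, 2 for each of 4 genotypes, which were assigned from the genotype labels. Each array's deposited intensities give 1 signal per probe set, on a linear scale. The authors used MAS5 and GCOS, per the submitters' processing notes, with no version given in the sources used here. A scaling to equal trimmed means was read from the values. Signals were used as deposited, and the 64 control probe sets were left out. The labels do not state that both arrays of a genotype are from separate cultures; p-values then measure the spread between these samples alone, and that may be technical. The number of arrays limits the precision.

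For genes that are not members, signals were raised to a floor of 10.0 where lower (10% of the arrays' trimmed mean), log2 was taken, and probe sets above it on at least 2 arrays were tested (17332 of 22746). Limma 3.58.1 in R 4.3.3 fitted 1 mean per genotype to all 8 arrays, with lmFit, eBayes and an intensity trend (4 residual and 3.43 prior degrees of freedom), two-sided, with Benjamini-Hochberg adjustment over all probe sets tested and a threshold of 0.05. The fit was tested on simulated data. All 159 members passed the filter through the double-mutant arrays alone, so their calls are not used. The calls of other probe sets above the floor on fewer than 2 arrays outside the double mutant are not used either, a choice made after seeing the data. SE is the standard error from limma. Where an array of the lower genotype lay at the floor, the fold is a bound and carries the words at least.

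Genes were named from the platform annotation through RefSeq gene tables (TAIR10.1), which matched all 96 members with 1 gene. The rule for named genes took the 20 members with the highest mean double-mutant signal, members with a symbol, members nearest to each threshold, and, by smallest adjusted p, up to 5 neighbours and up to 3 genes per list. Where a gene had several probe sets, the brightest stood for it. The members, lists and rules were chosen with earlier results of these data known, and the functional classes and the members described through them after the values were seen. Of the 10 gene lists, that of the Polycomb machinery had 0 of 13 genes named in the annotation used here. Closest paralogs and promoter motifs had been planned and were not run, because no protein or promoter sequences were used here. For the same reason no sequences are printed. Alternatives were other thresholds, floors, scalings, filters and eBayes settings, a replicate block, a fit to the compared arrays and leaving out each array.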

Additional observations from a re-analysis of the deposited data

How the results depend on the processing

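The member count was 154 with arrays scaled to equal medians (154 of them members) and 156 after quantile normalization (152 members). It was 155 with plain suffixes only and 163 to 183 when 1 array was left out. All 15 alternatives stayed within 1.5 times of 159, but only the scalings could have moved the count either way. Leaving out an array drops a condition of the rule, so the count could only stay or rise. The suffix setting could only lower it, and each changed threshold also had a fixed direction. In the comparison of the double mutant with wild type, leaving out 1 array gave 2583 to 4082 higher and 2935 to 3672 lower calls (4369 and 3720 with all arrays), the 2583 being without double-mutant replicate 1. Neighbours called higher ranged from 13, without double-mutant replicate 2, to 18, and those called lower from 11 to 14. With up to 2 genes on each side, 35 were higher and 27 lower of 113. Over all 17332 probe sets tested, 25.2% were higher and 21.5% lower, and the difference was not tested. The 113 also keep neighbours that met the filter only with the double-mutant arrays. Over the lists, 8 genes were called higher with all arrays and 4 to 8 when 1 was left out: 4 without double-mutant replicate 1; 5 when the other double-mutant array, wild type replicate 2, or 1 clf-28 array was omitted. Lower calls over the lists were 5 to 6. The 8 include 3 genes that met the filter only with the double-mutant arrays, whose calls are not used. With all arrays, 496 of the 4369 probe sets and 4 of the 20 neighbours called higher were of this kind. Of the 16 list genes above the floor on 2 arrays outside the double mutant, 5 were higher and 6 lower, chosen after seeing the data. Over all probe sets on the same terms, 23.4% were higher and 22.5% lower, and the difference was not tested. A genotype with 1 array left was taken to have the spread of the other genotypes. Samples of 1 replicate number do not deviate together throughout (correlations of deviations -0.08 to 0.22), so the numbers were not taken as pairs; with a replicate block, 4266 probe sets were higher and 3704 lower. The 20 named genes of the lists and neighbours kept their sign in all 17 alternative fits. For AT1G14950, AT5G38160, AT2G28490 and AT1G03890 this is no check, because they met the filter only by being high in the double mutant. Calls were lost by AGL80, EXPA7, AT4G34270 and, outside the 20, SDP1 and gained by NGA1, as given above; the cause was not tested. Signals at or under the floor of 10.0 have no order in these fits.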
